A study of Mus musculus with 8 samples.

Results

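The genes described here are 10 genes of the mouse growth plate that form 5 pairs lying on opposite strands of the same stretch of DNA. These pairs are *Tcfl5* and *Col9a3*, *Prmt7* and *Smpd3*, *Shmt2* and *Ndufa4l2*, *Gm26735* and *Sox4*, and *Nt5dc1* and *Col10a1*. They are 10 of the 43629 genes in the count table, of which 17492 had a count, and 5 of 3872 pairs of genes in the table whose exons overlap on opposite strands in the annotation. The members were selected on their difference between the growth plate zones in these same libraries, so their zone values are given as a description and without a test.

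The libraries came from *Axin2CreERT2;R26RTdTomato* mice, in which tamoxifen activates Cre in cells expressing *Axin2* and turns on the red reporter TdTomato in them and in their descendants. Each mouse received tamoxifen on 3 consecutive days from P23 and was analyzed at P30. All libraries share this genotype and treatment. Resting chondrocytes were TdTomato-positive cells, and proliferative chondrocytes were unlabeled, flattened cells at least 50 µm away from the secondary ossification center, both cut by laser microdissection from 8 µm frozen sections. Each of 4 mice gave 1 library per zone, so that n = 4 in each zone, and males were mice 1 and 2 and females mice 6 and 13. The labels name tibiae, and the study's methods name femoral and tibial growth plates. RNA was amplified by in vitro transcription before sequencing.

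Libraries held 192882 to 462044 counts in resting chondrocytes and 249284 to 631474 in proliferative chondrocytes. CPM, the counts relative to library size, scaled with edgeR's TMM factors, is the unit of level below. A count of 0 allows up to 3 counts, or 4.81 to 14.7 CPM depending on the library, and such limits cover counting error only. A list of 7 chondrocyte markers was present in all libraries, and its summed level was 6209 to 16031 CPM in resting libraries and 28221 to 50164 CPM in proliferative libraries, with 4 of the 7 called lower in the resting libraries and 0 higher (7 called without the resting library of mouse 6). Markers of other cells were higher in the resting libraries. The summed level of 16 blood and marrow markers was 4898 to 14647 CPM there and 1.60 to 2242 CPM in proliferative libraries, and 9 of the 13 tested were called higher in the resting libraries and 0 lower. The corresponding ranges were 8611 to 36763 and 589 to 3821 CPM for 8 osteoblast and osteocyte markers, with 2 of 3 tested called higher, and 1487 to 4520 and 14.4 to 439 CPM for 7 osteoclast markers, with 4 of 4 called higher. The resting library of mouse 6 stood apart, with the highest chondrocyte sum (16031 CPM) and the lowest osteoblast sum (8611 CPM) of its zone. The fold changes of the members are therefore also given without it.

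Genes that overlap tail to tail end within each other, so that the last exon of each contains sequence complementary to the last exon of the other. A sequencing read from such a stretch can be assigned to the right gene only if the library keeps the strand of the RNA and the counting program is told which strand it is. The growth plate is a tissue in which a small number of matrix genes, above all the collagens of cartilage, make up a large part of the messenger RNA, and resting chondrocytes give rise to columns of flattened proliferative chondrocytes that later become hypertrophic. The strand setting used for counting is not given in the sources used here, so reads of a member and of its partner cannot be told apart.

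In 4 of the 5 pairs the genes met tail to tail, and the shared stretch held no coding base of either gene in any of the 5. *Tcfl5* (ENSMUSG00000038932, chr2:180621956-180642708, minus strand, GRCm38) and *Col9a3* (ENSMUSG00000027570, chr2:180597790-180622189, plus strand) shared 234 exon bases, chr2:180621956-180622189, which are 7.39% of the exon sequence of *Tcfl5* and 6.07% of that of *Col9a3*. *Prmt7* (ENSMUSG00000060098, chr8:106210936-106252794, plus strand) and *Smpd3* (ENSMUSG00000031906, chr8:106252548-106337988, minus strand) shared 247 bases, or 4.03% and 4.72% of their exons. *Prmt7* also overlaps *Gm26786*. The stretch shared by *Shmt2* (ENSMUSG00000025403, chr10:127517123-127522444, minus strand) and *Ndufa4l2* (ENSMUSG00000040280, chr10:127514967-127517154, plus strand) was 32 bases, or 1.03% and 2.92% of their exons. The fourth pair differed in extent. *Gm26735* (ENSMUSG00000097461, chr13:28943048-28951671, plus strand), annotated as a long intergenic noncoding RNA, shared 2616 bases with *Sox4* (ENSMUSG00000076431, chr13:28948919-28953713, minus strand), which are 98.8% of the exons of *Gm26735* and 54.6% of the single exon of *Sox4*. *Col10a1* (ENSMUSG00000039462, chr10:34389981-34397085, plus strand) lay whole within the span of *Nt5dc1* (ENSMUSG00000039480, chr10:34288288-34418552, minus strand), and their exons shared 18 bases, or 0.575% and 0.514% of their lengths.

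**Figure D1:**
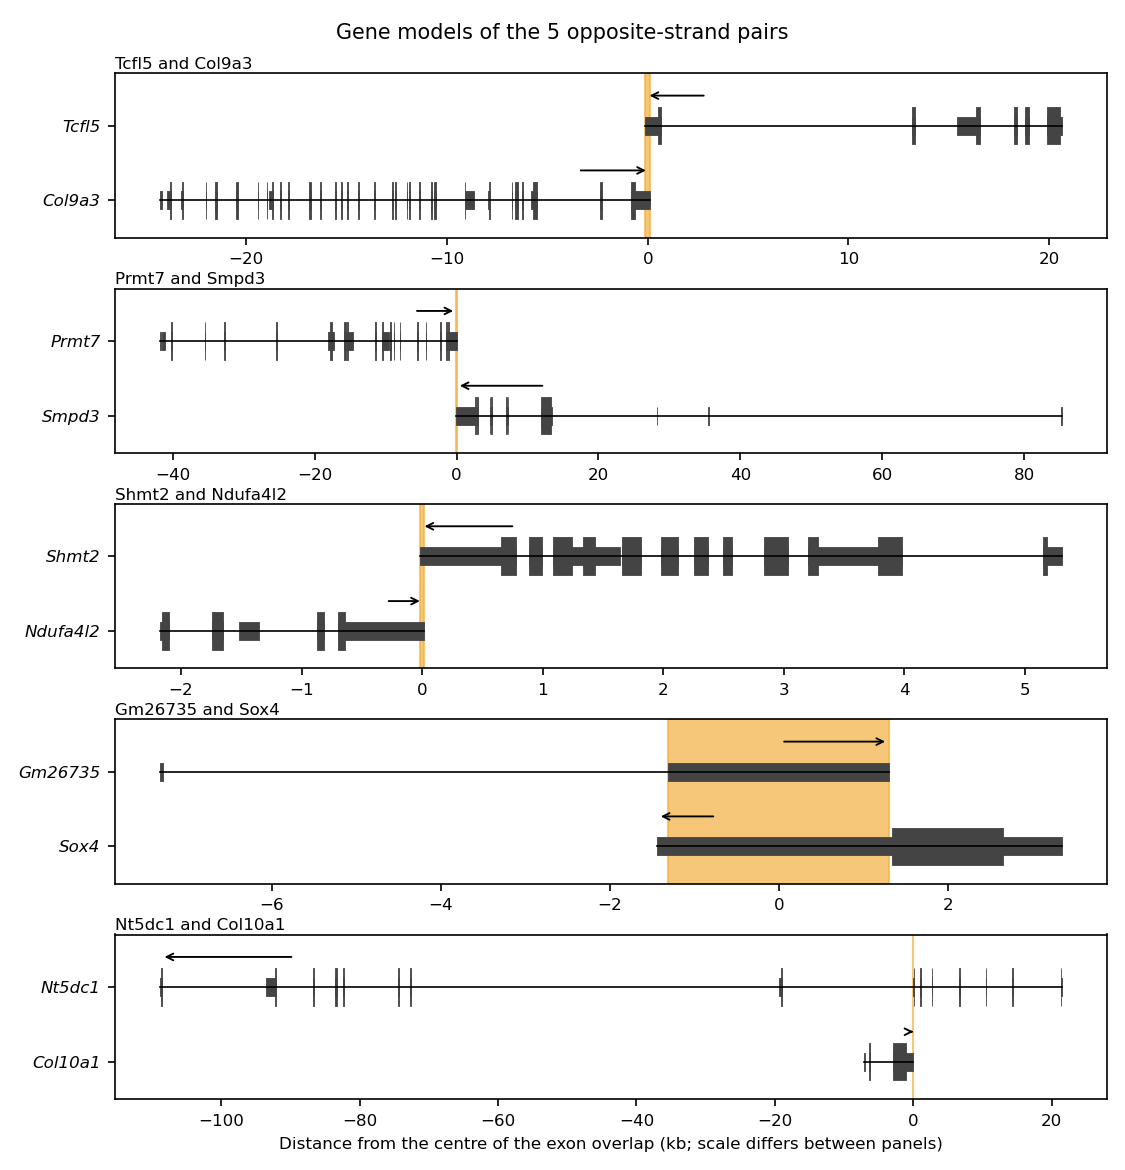
Gene models of the 5 pairs against the distance in kb from the centre of their exon overlap, with coding exons as tall boxes, noncoding exon parts as low boxes, arrows in the direction of transcription and the overlap shaded. The overlap is 18 to 247 bases in 4 pairs and 2616 bases in *Gm26735* and *Sox4*.

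In every pair the gene better known from cartilage or progenitor cells, *Col9a3*, *Smpd3*, *Ndufa4l2*, *Sox4* or *Col10a1*, had fewer counts in proliferative chondrocytes than its opposite-strand partner. Both members of a pair differed between the zones in the same direction, and each member differed in the same direction in 4 of 4 mice. The members of 4 pairs were lower in resting chondrocytes, and *Gm26735* and *Sox4* were higher there. The 10 genes together held 0.358% to 0.844% of the counts of a resting zone library and 5.23% to 6.90% of those of a proliferative zone library. Since bulk libraries were measured, fewer cells of a type and less RNA per cell cannot be told apart. Of the 3793 genes tested, 11.0% were called higher in resting chondrocytes and 6.93% higher in proliferative chondrocytes (adjusted p below 0.01 and log2 fold change beyond 1, edgeR quasi-likelihood test), and 2 and 7 of the 10 members met these criteria. The resting and proliferative libraries did not overlap in 17.8% of tested genes with the resting zone higher and in 15.1% with the proliferative zone higher, and the members numbered 2 and 7 here as well. These counts follow from how the members were chosen. *Col9a3* was the member that missed both. With the mouse as a replicate block, which pairs the libraries of an animal, 385 of the 3793 genes were called higher in resting chondrocytes. In that fit 230 were called higher in proliferative chondrocytes, and 10 of 10 members met the criteria. That count, too, follows from how the members were chosen.

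**Figure D2:**
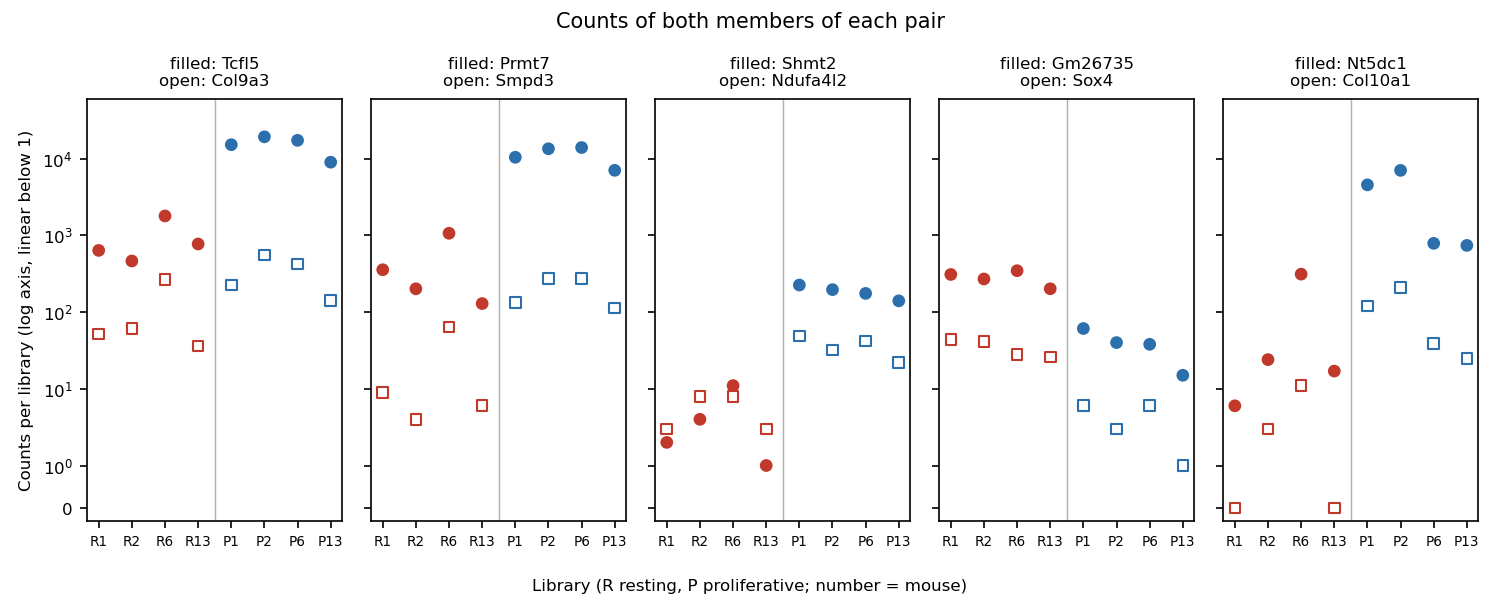
Counts of both members of each pair in every library, on a log axis that is linear below 1, with resting libraries in red, proliferative libraries in blue, the first-named member as filled circles and the second as open squares. In the proliferative zone the filled circle lies above the open square in 4 of 4 libraries of every pair.

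*Tcfl5* encodes a basic helix-loop-helix transcription factor known from male germ cells, and *Col9a3* encodes the third chain of type IX collagen, which coats the type II collagen fibrils of cartilage. *Tcfl5* had 636, 463, 1790 and 771 counts in resting chondrocytes from mice 1, 2, 6 and 13 and 15186, 19222, 17300 and 8981 counts in proliferative chondrocytes of these mice. *Col9a3* had 52, 61, 265 and 36 counts and 225, 555, 421 and 141 counts, respectively. The *Tcfl5* libraries of the zones were far apart, whereas the *Col9a3* level of the resting library of mouse 6 (527 CPM) was above that of the proliferative library of mouse 1 (437 CPM). *Tcfl5* measured 2686 ± 1158 CPM in resting chondrocytes and 31838 ± 4203 CPM in proliferative chondrocytes (SD, n = 4), a log2 fold change, resting over proliferative, of -3.57 (SE 0.32), which was -3.76 without the resting library of mouse 6. *Col9a3* measured 264 ± 176 and 662 ± 216 CPM, with a log2 fold change of -1.31 (SE 0.39), and of -1.93 without that library. *Tcfl5* alone took 2.74% to 3.60% of all counts of a proliferative zone library. Per kb of exon its mean level there was 10056 CPM, against 172 CPM for *Col9a3*. Levels per kb, here and below, assume that reads cover all exons of a gene evenly, which was not tested. The other chains of type IX collagen, *Col9a1* and *Col9a2*, have no opposite-strand exon partner in the annotation. *Col9a1* had a log2 fold change of -1.33 (SE 0.44, edgeR adjusted p = 0.0355), and *Col9a2* one of -1.62 (SE 0.41, edgeR adjusted p = 0.00943).

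*Prmt7* encodes an arginine methyltransferase that places single methyl groups on proteins. *Smpd3* encodes neutral sphingomyelinase 2, a membrane enzyme that splits sphingomyelin into ceramide and phosphocholine and is needed for normal mineralization of the skeleton. In the resting zone of mice 1, 2, 6 and 13 *Prmt7* had 356, 201, 1064 and 129 counts, and in proliferative chondrocytes 10409, 13434, 13941 and 7033. *Smpd3* had 9, 4, 64 and 6 counts in resting chondrocytes and 132, 275, 275 and 113 in proliferative chondrocytes. The zones did not overlap for either gene, and for both the resting library of mouse 6 was the highest of its zone. The levels were 1117 ± 699 and 23677 ± 3850 CPM for *Prmt7* (SD, n = 4), with a log2 fold change of -4.40 (SE 0.40). For *Smpd3* they were 49.2 ± 52.6 and 409 ± 103 CPM, with a log2 fold change of -2.94 (SE 0.54). Leaving out the resting library of mouse 6 gave -4.94 and -4.18. Per kb of exon, *Prmt7* stood at 3866 CPM and *Smpd3* at 78.2 CPM in proliferative chondrocytes.

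*Shmt2* encodes the mitochondrial serine hydroxymethyltransferase, which turns serine into glycine and supplies one-carbon units, and *Ndufa4l2* encodes a mitochondrial protein induced under low oxygen by HIF-1. *Shmt2* had 2, 4, 11 and 1 counts in resting chondrocytes from mice 1, 2, 6 and 13 and 225, 196, 175 and 140 counts in proliferative chondrocytes. The counts of *Ndufa4l2* were 3, 8, 8 and 3 in resting chondrocytes and 49, 32, 42 and 22 in proliferative chondrocytes. Both genes were near the detection limit in resting chondrocytes and well above it in each proliferative library, without overlap. *Shmt2* had a level of 11.4 ± 7.79 CPM against 408 ± 132 CPM (SD, n = 4) and a log2 fold change of -4.97 (SE 0.43). *Ndufa4l2* had 16.3 ± 6.74 CPM against 77.1 ± 19.3 CPM and a log2 fold change of -2.21 (SE 0.43). Without the resting library of mouse 6 these were -5.59 and -2.21. This was the pair whose members were closest to each other per kb of exon, at 131 and 70.4 CPM in proliferative chondrocytes.

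*Gm26735* is a noncoding RNA, and *Sox4* encodes a SoxC transcription factor active in progenitor cells of many tissues, among them lymphoid and skeletal precursors. *Gm26735* had 309, 270, 346 and 201 counts in resting chondrocytes from mice 1, 2, 6 and 13 and 61, 40, 38 and 15 in proliferative chondrocytes. *Sox4* had 44, 41, 28 and 26 counts in resting chondrocytes and 6, 3, 6 and 1 in proliferative chondrocytes. Every resting library was above every proliferative library for both genes. *Gm26735* measured 867 ± 131 and 77.5 ± 27.5 CPM (SD, n = 4), with a log2 fold change of 3.47 (SE 0.29), and *Sox4* measured 112 ± 37.4 and 7.64 ± 3.58 CPM, with a log2 fold change of 3.74 (SE 0.47). In the resting zone the levels per kb of exon were 327 and 23.3 CPM. The resting library of mouse 6, the one with the lowest osteoblast marker sum, had the lowest *Sox4* level (55.7 CPM) of its zone, and also the lowest *Gm26735* level (688 CPM). Without it the log2 fold changes were 3.54 and 3.95. The lowest blood and marrow sum of the resting zone was that of mouse 13 (4898 CPM), which had the highest *Gm26735* level (986 CPM), and the lowest osteoclast sum was that of mouse 2 (1487 CPM). Between the zones the blood, osteoblast and osteoclast markers given above moved in the same direction as this pair, and their part in the difference was not tested.

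*Col10a1* encodes type X collagen, the defining matrix protein of hypertrophic chondrocytes, and *Nt5dc1* encodes a protein with a 5′-nucleotidase domain. The regions just before the start of each gene, where transcription begins and where the strands are read in opposite directions, are shown as the 250 bases upstream of the transcript start that RefSeq gives (GRCm38.p6). For *Nt5dc1* that start lies 1 base inside the gene model given above, so the window holds the first base of that model. Capitals mark matches to the motif TATANA (the core of a box bound by general transcription machinery), which was searched on both strands and found on the strand of the gene as shown.
Col10a1: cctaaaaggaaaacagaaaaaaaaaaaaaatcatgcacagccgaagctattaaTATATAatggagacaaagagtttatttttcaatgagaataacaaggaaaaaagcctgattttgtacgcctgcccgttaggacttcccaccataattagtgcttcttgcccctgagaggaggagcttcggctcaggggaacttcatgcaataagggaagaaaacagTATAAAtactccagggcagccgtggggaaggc
Nt5dc1: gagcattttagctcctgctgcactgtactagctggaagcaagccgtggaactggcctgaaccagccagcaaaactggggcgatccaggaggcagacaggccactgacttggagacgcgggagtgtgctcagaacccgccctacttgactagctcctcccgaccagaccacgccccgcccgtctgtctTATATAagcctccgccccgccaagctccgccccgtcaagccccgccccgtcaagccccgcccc
These are chr10:34389731-34389980 on the plus strand and chr10:34418552-34418801 on the minus strand. The matches begin 197 and 32 bases before the start of *Col10a1* and 63 bases before that of *Nt5dc1*. The 1 match on the other strand of each window is the marked TATATA itself, which reads the same on both strands. No other motif was searched. TATANA occurs on the strand of the gene in 16.4% of 32851 promoter windows of this length and on either strand in 22.6%. The *Col10a1* window held 41.6% G and C, and the *Nt5dc1* window 64%, where the median of all windows is 52.4%.

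*Nt5dc1* had 6, 24, 312 and 17 counts in resting chondrocytes from mice 1, 2, 6 and 13 and 4548, 7026, 786 and 739 in proliferative chondrocytes. *Col10a1* had 0, 3, 11 and 0 counts in resting chondrocytes and 120, 208, 39 and 25 in proliferative chondrocytes. In both genes the male proliferative libraries were the 2 highest, the resting library of mouse 6 was the highest of its zone, and the zones did not overlap. *Nt5dc1* measured 200 ± 282 and 6296 ± 5003 CPM (SD, n = 4), with a log2 fold change of -4.94 and the largest error of the members (SE 0.98). *Col10a1* measured 7.85 ± 10.4 and 189 ± 133 CPM, with a log2 fold change of -4.28 (SE 0.78). Leaving out the resting library of mouse 6 moved these to -6.78 and -5.67. Within a mouse, the log2 difference of *Nt5dc1* ranged from -8.84 to -1.02, the widest range of the members. Per kb of exon the proliferative level was 1796 CPM for *Nt5dc1* and 60.3 CPM for *Col10a1*.

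**Figure D3:**
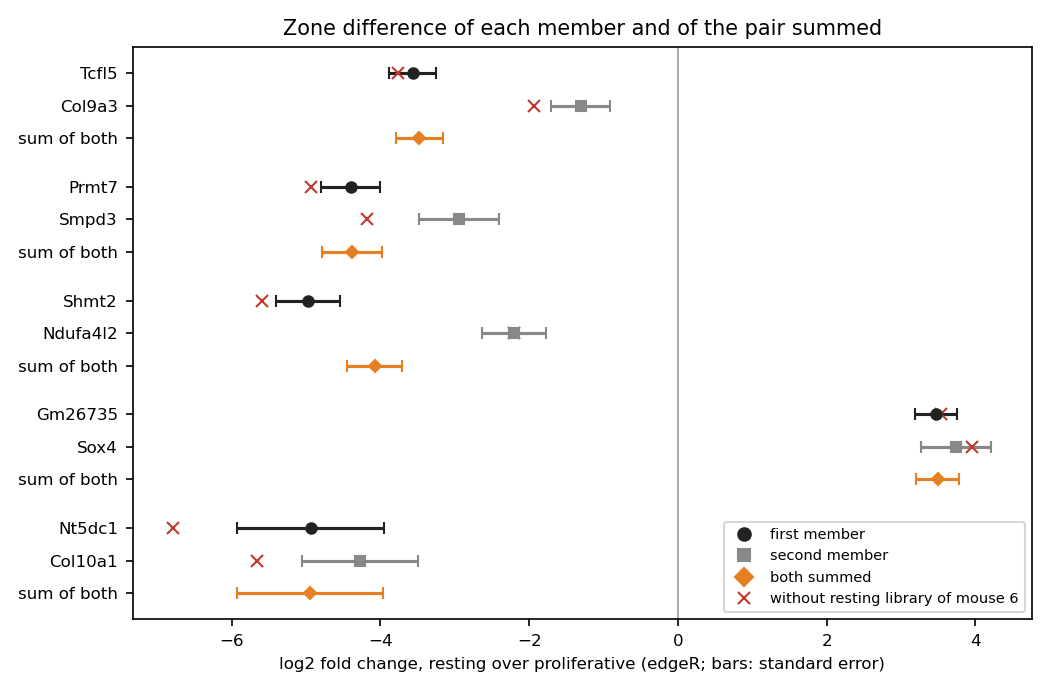
Log2 fold change, resting over proliferative, of each member and of both members of a pair summed into 1 feature, with standard errors from edgeR. Crosses are values without the resting library of mouse 6, which lie farther from 0 for *Col9a3*, *Smpd3*, *Shmt2*, *Nt5dc1* and *Col10a1* by more than 1.5-fold.

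The counts of a pair were divided unevenly between its gene names in most libraries. *Tcfl5* took 90.9% ± 3.86 of the pair's counts in resting chondrocytes and 98.0% ± 0.653 in proliferative chondrocytes (SD, n = 4). The count of *Tcfl5* per count of *Col9a3* was 6.75 to 21.4 in resting libraries and 34.6 to 67.5 in proliferative ones, without overlap. *Prmt7* took 96.4% ± 1.73 and 98.3% ± 0.348, and its ratio to *Smpd3* was 16.6 to 50.3 in resting chondrocytes and 48.9 to 78.9 in proliferative chondrocytes. *Gm26735* took 88.9% ± 2.54 and 91.0% ± 3.32, and its ratio to *Sox4* was 6.59 to 12.4 in resting chondrocytes and 6.33 to 15 in proliferative ones. *Nt5dc1* took 96.4% ± 5.24 and 96.6% ± 0.955. Its ratio to *Col10a1* was 8 to 28.4 in the 2 resting libraries with a *Col10a1* count and 20.2 to 37.9 in proliferative libraries. The proliferative shares of *Nt5dc1* lay between 95.3% and 97.4%, and its counts there ranged from 739 to 7026. Shares this close to their upper limit change little when the ratio changes. *Shmt2* was the exception, with 39.1% ± 14.0 in resting chondrocytes, where the pair had 40 counts in all, and 83.8% ± 2.85 in proliferative chondrocytes. The exact Clopper-Pearson 95% interval of its resting share reached from 33.5% to 79.7% in mouse 6, the library with the most counts of this pair, so that the resting share is poorly set at this depth. These intervals reflect counting error alone, as the RNA was amplified and copies of 1 molecule can be counted more than once. Summed into 1 feature, the pairs had log2 fold changes of -3.48 (SE 0.32) for *Tcfl5* and *Col9a3*, -4.38 (SE 0.41) for *Prmt7* and *Smpd3*, -4.08 (SE 0.36) for *Shmt2* and *Ndufa4l2*, 3.49 (SE 0.29) for *Gm26735* and *Sox4*, and -4.95 (SE 0.99) for *Nt5dc1* and *Col10a1*.

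**Figure D4:**
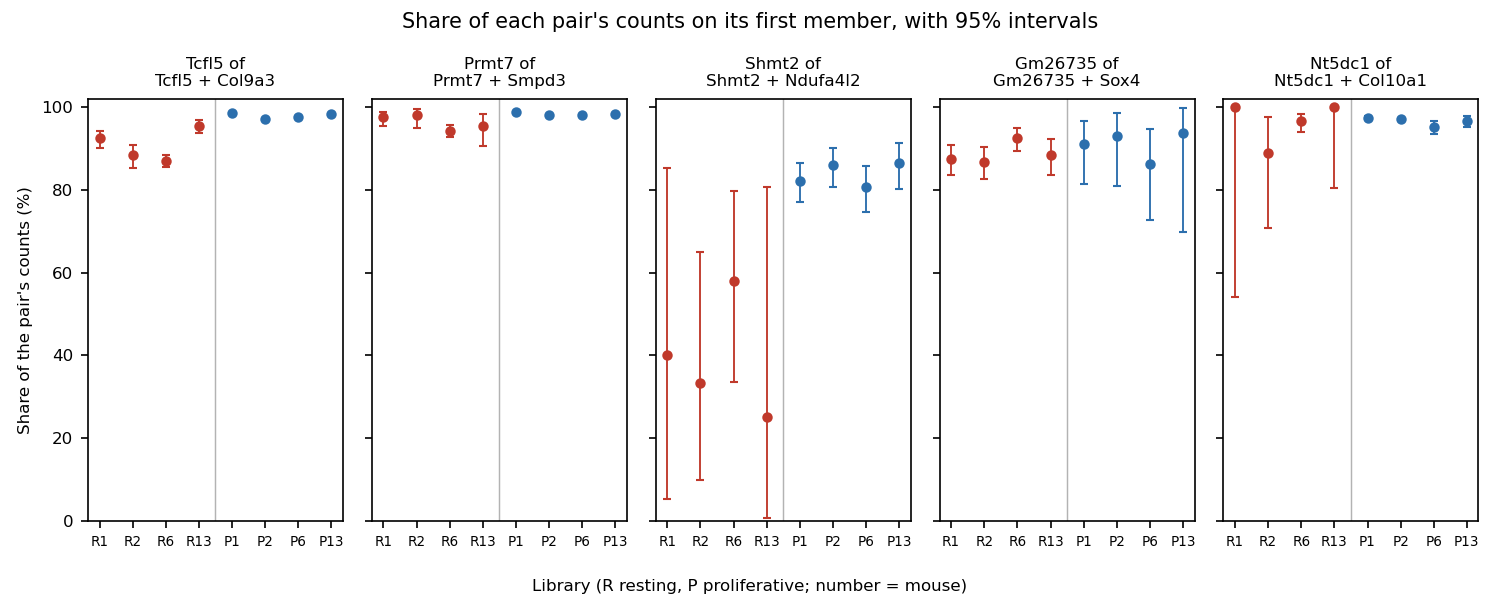
Share of each pair's counts that fell on the first-named member, in percent, per library, with exact 95% binomial intervals that cover counting error only, and resting libraries in red and proliferative ones in blue. The share lies above 80% in every library of every pair except in the resting libraries of *Shmt2* and *Ndufa4l2*.

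The likeness of the members' patterns was measured as Pearson's r of log2(CPM + 1) over the 8 libraries, among 3792 other tested genes for each member, and is a description because all genes share these libraries and both zones enter it. *Nt5dc1* and *Col10a1* had an r of 0.956, and each was among the other's nearest genes, with *Col10a1* at rank 9 for *Nt5dc1* and *Nt5dc1* at rank 7 for *Col10a1*. *Gm26735* and *Sox4* had an r of 0.980 (*Sox4* at rank 21 for *Gm26735* and *Gm26735* at rank 10 for *Sox4*, and in this order below). The r was 0.957 for *Shmt2* and *Ndufa4l2* (ranks 46 and 10), 0.961 for *Prmt7* and *Smpd3* (ranks 69 and 48) and 0.828 for *Tcfl5* and *Col9a3* (ranks 414 and 269). After the zone means were removed, r was 0.88 for *Prmt7* and *Smpd3*, 0.83 for *Nt5dc1* and *Col10a1*, 0.70 for *Gm26735* and *Sox4*, 0.56 for *Shmt2* and *Ndufa4l2* and 0.42 for *Tcfl5* and *Col9a3*. The resting library of mouse 6, the highest of its zone for *Prmt7*, *Smpd3*, *Nt5dc1* and *Col10a1*, enters these values. Its part in them was not tested, and *Col10a1* had 0 counts in the resting libraries of mice 1 and 13. The genes with the pattern most like that of *Tcfl5* were *RP24-439O10.3*, *Chst11* and *1700025G04Rik* (r of 0.997, 0.995 and 0.992), and for *Col9a3* they were *Sap30*, *Tceal8* and *Cd9* (0.980, 0.980 and 0.979). *Chst11* encodes a sulfotransferase of chondroitin. *Prmt7* was most like *Panx3*, *Ldha* and *Il17b* (0.995, 0.994 and 0.991), and *Smpd3* most like *Hspg2*, *2700060E02Rik* and *Sox9* (0.992, 0.992 and 0.992). *Hspg2* encodes perlecan, and *Sox9* the master transcription factor of chondrocytes. *Shmt2* was nearest to *Tmem88*, *Bnip3* and *Htra2* (0.992, 0.989 and 0.988), and *Ndufa4l2* to *RP24-388D8.6*, *Gm11100* and *Elac2* (0.988, 0.982 and 0.976). *Bnip3* is, like *Ndufa4l2*, a hypoxia-induced gene. *Gm26735* was nearest to *Ldhd*, *Ctsd* and *Cd79b* (0.996, 0.991 and 0.990), and *Sox4* to *Ctsd*, *Etohd2* and *Myh9* (0.993, 0.992 and 0.991). *Ctsd* encodes a lysosomal protease and *Cd79b* a part of the B cell receptor. *Nt5dc1* was nearest to *Ppp2r5d*, *Sox5* and *Krt10* (0.977, 0.970 and 0.969), and *Col10a1* to *Lsm12*, *Gm14681* and *Nid2* (0.983, 0.981 and 0.964). Some of these near genes have an opposite-strand partner themselves. Over the 8 libraries *RP24-439O10.3* had more counts than its partner (11648 against 194), and *Il17b* had fewer (124 against 3148).

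The other genes of the pathways to which the cartilage members belong were compared between the zones with edgeR's quasi-likelihood test, with p-values adjusted over all 3793 genes, whose median log2 fold change was 0.08. The strand setting of the counting bears on every gene of the table, so counts under a gene's name cannot be assigned to its own strand here either, and for *Prelp*, *Epyc*, *Gli1*, *Carm1* and other list genes with an opposite-strand partner they cannot be told apart from reads of that partner. Genes of the cartilage matrix, the group to which *Col9a3* belongs, were mostly lower in resting chondrocytes, with 9 of 16 tested genes called lower, 0 higher and a median log2 fold change of -1.69. Without the resting library of mouse 6, 15 genes were called. The lowest adjusted p-values belonged to the proteoglycan gene *Prelp* (-3.09, adjusted p = 0.000135), *Col11a1* (-2.58, adjusted p = 0.000261), the link protein gene *Hapln1* (-3.14, adjusted p = 0.000485) and *Epyc* (-3.38, adjusted p = 0.000579). Genes of hypoxia and glycolysis, the group to which *Ndufa4l2* belongs, were called lower in resting chondrocytes in 12 of 15 and higher in 0, with a median of -2.50. These included the mitophagy gene *Bnip3* (-4.42, adjusted p = 5.01e-05), the glycolytic genes *Eno1* (-2.83, adjusted p = 9.84e-05) and *Ldha* (-2.02, adjusted p = 0.000278), and *Higd1a* (-2.97, adjusted p = 0.000291). Over all 3793 genes, 6.93% were called lower in resting chondrocytes. The resting libraries also had lower chondrocyte marker sums and higher sums of markers of other cells, as given above. The part of these markers in the list differences was not tested.

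In the remaining lists, calls went in both directions or were few. Of 15 tested prehypertrophic and hypertrophic genes, the group to which *Col10a1* belongs, 2 were called lower in resting chondrocytes and 4 higher, with a median log2 fold change of 0.16. The channel gene *Panx3* (-4.78, edgeR adjusted p = 5.01e-05) and the hedgehog receptor gene *Ptch1* (-1.78, edgeR adjusted p = 0.00553) were lower, and *Gli1*, *Mmp13*, *Ank* and *Spp1* were higher. *Mmp13* (4.66, edgeR adjusted p = 0.00109) and *Spp1* (3.54, edgeR adjusted p = 0.00847) are also known from bone cells, whose markers were higher in the same libraries as described above. With the mouse as a replicate block, *Ptch1* (edgeR adjusted p = 0.0131) and *Ank* (edgeR adjusted p = 0.0164) missed the threshold, and *Pth1r* (-1.66, edgeR adjusted p = 0.00593 with the block) and *Ibsp* (3.82, edgeR adjusted p = 0.00279 with the block) met it. Only 3 of 16 genes of serine and folate metabolism passed the filter on low counts. Of these, *Aldh1l2*, a mitochondrial folate enzyme as *Shmt2* is, was called lower in resting chondrocytes (-3.31, SE 0.61, edgeR adjusted p = 0.00148), and log2 fold changes were 0.26 (SE 0.44) for the cytosolic *Shmt1* and -0.18 (SE 0.46) for *Amt*. Among the arginine methyltransferases only *Carm1* passed the filter besides *Prmt7*, with a log2 fold change of 0.63 (SE 0.26, edgeR adjusted p = 0.0829). Of 4 tested *Sox* genes, *Sox9* was called lower in resting chondrocytes (-2.44, SE 0.46, edgeR adjusted p = 0.00176). *Sox11*, a SoxC gene like *Sox4*, had a log2 fold change of -0.32 (SE 0.51, edgeR adjusted p = 0.681), *Sox5* one of -1.33 (SE 0.41, edgeR adjusted p = 0.0270) and *Sox8* one of 0.26 (SE 0.72, edgeR adjusted p = 0.824). Of 8 tested sphingolipid genes, *Sphk1*, which phosphorylates sphingosine, was called higher in resting chondrocytes (5.07, SE 0.81, edgeR adjusted p = 0.000673), and the other 7 were not called. *Sgms2*, a sphingomyelin synthase gene, had a log2 fold change of -1.82 (SE 0.47, edgeR adjusted p = 0.0104) and met the criteria with the replicate block (edgeR adjusted p = 0.000796). The values were 1.12 (SE 0.37, edgeR adjusted p = 0.0366) for *Sphk2* and 0.62 (SE 0.22, edgeR adjusted p = 0.0532) for *Smpd2*, another sphingomyelinase gene. *Sptlc2* had a value of -1.57 (SE 0.49, edgeR adjusted p = 0.0288).

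Other genes of these lists shared counts with an opposite-strand partner in different proportions. *Prelp* had 386 counts in resting chondrocytes and 4620 in proliferative chondrocytes, and its partner *Gm15851* had 27 and 4860, so that *Prelp* led in resting chondrocytes and the counts were close to even in proliferative ones. *Phospho1*, a phosphatase gene of mineralizing cells, had no count in either zone, whereas its partner *Abi3* had 80 and 547. *Gli1* and its partner *Arhgap9* went in opposite directions, with log2 fold changes of 3.31 and -1.33. In other genes the partner was hardly counted, as in *Pth1r*, with 219 and 845 counts against 0 and 4 on *Myl3*.

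Of all 3872 pairs, 482 had both genes tested, and the log2 fold changes had the same sign in 312 of them (64.7%). Both genes were called in the same direction in 29 pairs, of which 4 were pairs described here, and in opposite directions in 5. In 124 pairs 1 gene was called, and in 324 neither. Genes in such pairs held 65.5% to 67.5% of the counts of resting libraries and 69.3% to 72.8% of those of proliferative libraries, and they included 40 of the 50 most counted genes. They were 6937 of the 42462 genes with gene models and 1757 of the 3793 tested genes. In the 482 tested pairs the less counted gene took a median of 19.7% of the counts. In the 4 female libraries, *Tsix*, the antisense gene of *Xist*, took 91.4% to 94.8% of the counts of these genes, although *Xist* is the transcript that coats the inactive X chromosome. A further 2 pairs of abundant transcripts were looked up after their counts had been seen. *mt-Nd6*, the mitochondrial gene on the opposite strand from its neighbour *mt-Nd5*, had 137491 counts over the 8 libraries against 3421 on *mt-Nd5* (94.9% to 99.0% of the pair per library). *RP24-458F14.4* had 20120 counts against 223 on *Malat1*, an abundant nuclear RNA (94.2% to 99.3%). The shares in these pairs were of the same order as in *Tcfl5*, *Prmt7*, *Gm26735* and *Nt5dc1*, and the part of strand assignment in them was not tested.

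**Figure D5:**
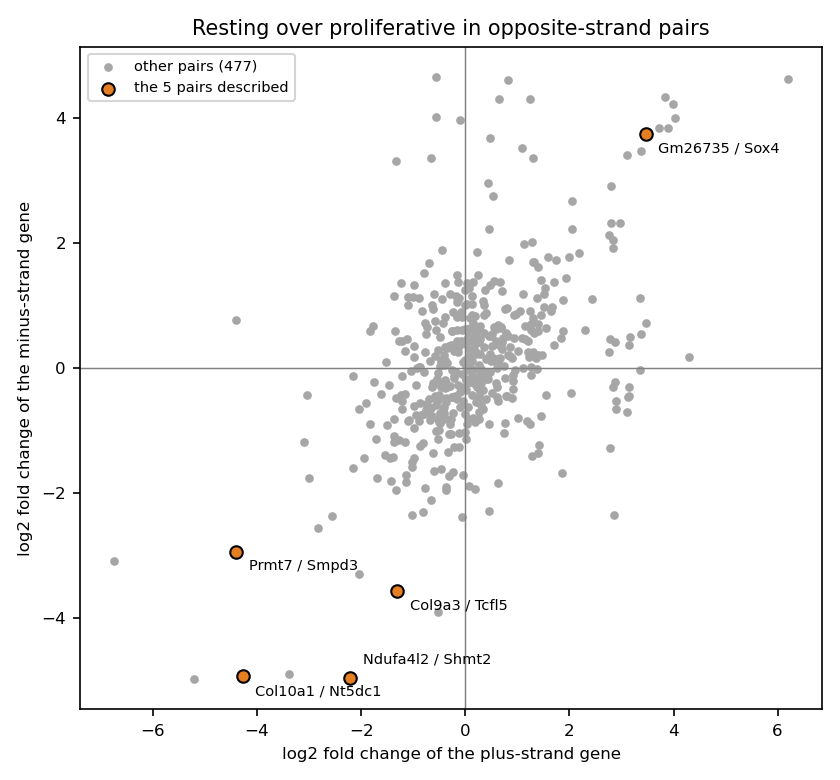
Log2 fold change, resting over proliferative, of the plus-strand gene (horizontal) and the minus-strand gene (vertical) of the 482 opposite-strand pairs with both genes tested, the 5 pairs described in orange. These were chosen for their zone differences and lie on the same side of 0 on both axes, *Col9a3* the nearest to 0 of the members at -1.31, and 312 of the 482 pairs have the same sign.

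Sex was not used to choose the members, and it was compared on the summed counts of the libraries of each mouse, 2 female against 2 male. Of 6833 genes tested, 2 were called (0.0293%, *Tsix* and *Xist*, edgeR quasi-likelihood test), and 429 had an unadjusted p below 0.05. None of the 10 members was called in this fit. In the proliferative zone *Nt5dc1* measured 8830 and 12029 CPM in the males and 1259 and 3065 CPM in the females, and *Col10a1* measured 233 and 356 CPM in the males and 62.5 and 104 CPM in the females. For both genes the male libraries lay above the female ones. Over the summed libraries the log2 fold change, female over male, was -2.33 for *Nt5dc1* (SE 0.32, edgeR adjusted p = 0.0760) and -1.95 for *Col10a1* (SE 0.36, edgeR adjusted p = 0.232). Both missed the threshold over all genes, whereas DESeq2, and edgeR without the filter on low counts, put both past it. Within proliferative chondrocytes the values were -2.31 (edgeR adjusted p = 0.0382) and -1.92 (edgeR adjusted p = 0.0708). In the resting zone the direction of *Nt5dc1* was the opposite, with 18.2 and 76.1 CPM in the males and 621 and 83.4 CPM in the females (log2 fold change of 2.96, SE 0.94, edgeR adjusted p = 0.604), and the high value is that of the library of mouse 6. The summed level of the prehypertrophic and hypertrophic list in proliferative chondrocytes was 2093 and 2157 CPM in the males and 1679 and 1949 CPM in the females. In the same libraries the summed blood and marrow markers were 2242 and 438 CPM in the males and 1.60 and 8.29 CPM in the females. The osteoblast sums overlapped between the sexes (3821 and 957 CPM in the males, 589 and 1112 CPM in the females), and so did the osteoclast sums (439 and 63.3 CPM in the males, 14.4 and 95.4 CPM in the females). The part of these markers in the difference was not tested. The other 8 members had log2 fold changes between -0.33 and 0.23 (SE 0.21 to 0.45) on the summed libraries, to which the proliferative libraries gave more counts for 6 of the 8. Within resting chondrocytes *Tcfl5* measured 1932 and 1468 CPM in the males and 3561 and 3784 CPM in the females, a log2 fold change of 1.15 (SE 0.32, edgeR adjusted p = 0.508). There the values were 1.06 (SE 0.53, edgeR adjusted p = 0.725) for *Col9a3* and 0.73 (SE 0.54, edgeR adjusted p = 0.857) for *Prmt7*. Within proliferative chondrocytes *Gm26735* had a value of -0.64 (SE 0.42, edgeR adjusted p = 0.968). None of these passed the threshold. In the same resting libraries the summed chondrocyte markers were 6534 and 6209 CPM in the males and 16031 and 9030 CPM in the females, and the blood and marrow markers were 14366 and 14647 CPM against 7835 and 4898 CPM. Their part in these values was not tested. With 2 mice per sex, sex and the individual mouse cannot be told apart.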

How the data were processed

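RNA sequencing libraries of resting and proliferative chondrocytes from 4 mice were analyzed. The authors trimmed the reads with BBDuk, aligned them to GRCm38 with HISAT2 2.1.0 and counted them per gene with HTSeq-count 0.11.2 on the Ensembl annotation, and deposited these counts as raw whole numbers. Their other deposited table gives the authors' signal per library (TMM-scaled CPM), used here for gene names only, and columns of their own comparison, not used here. Zones were compared with edgeR 4.0.16 in R 4.3.3 (TMM, filterByExpr at its defaults, quasi-likelihood test, Benjamini-Hochberg adjustment), without a block and at the thresholds of the study. Sex was tested on the libraries of each mouse summed. Both fits were checked on simulated counts. Exon overlaps came from GENCODE M21 (GRCm38), a later release than the authors used.

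The members and lists were chosen with earlier results of these data known. Named besides the members were the 4 tested genes of each list with the lowest adjusted p, list genes with an opposite-strand partner, the 3 genes most like each member, *Tsix* and *Xist*. *Col9a1*, *Col9a2*, *Ank*, *Spp1* and *Ibsp* fall outside this rule and were chosen after their values were seen. Same-numbered libraries came from the same mouse by the labels, and their deviations from the zone means correlated by 0.165, 0.0136, 0.137 and 0.0577 in mice 1, 2, 6 and 13 (-0.206 to 0.132 between mice). Alternatives were DESeq2 1.42.0, the likelihood ratio test, RLE factors, all genes with at least 1 count, the mouse as a block, shares per exon kb, each library left out and, added after the data were seen, pairs summed, sex within a zone and lists without the resting library of mouse 6. *Prmt9*, *Snorc* and *Cnmd* were not found in the table by symbol.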

Additional observations from a re-analysis of the deposited data

Results flagged for a closer look

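The level of each member and the share of each pair were checked in each zone for 1 library far from the other three. Of 30 such groups of 4 libraries, 6 held one, where chance gives about 1 in 20. In the resting zone the library of mouse 6 was far above the others for *Col9a3* (527 CPM), *Smpd3* (127 CPM) and *Nt5dc1* (621 CPM) and far below them for *Sox4* (55.7 CPM). The same library had the highest summed chondrocyte markers (16031 CPM) and the lowest summed osteoblast markers (8611 CPM) of the resting zone, and their part in these values was not tested. In the proliferative zone the library of mouse 1 was far below the others for *Smpd3* (256 CPM) and far above them for *Gm26735* (118 CPM). That library also had the highest summed blood and marrow markers (2242 CPM) and osteoblast markers (3821 CPM) of the proliferative zone.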

How the results depend on the processing

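The log2 fold changes of the 10 members had 130 alternative values, all 130 in the main direction and within 1 SD of the differences between mice. Leaving out the resting library of mouse 6 moved *Col9a3*, *Smpd3*, *Shmt2*, *Nt5dc1* and *Col10a1* by more than 1.5-fold, as given above. A fit over all genes with a count of 1 or more called 829 higher in the resting and 468 in the proliferative zone, in place of 419 and 263. With each library left out these were 255 to 472 and 183 to 349, the 255 without the proliferative library of mouse 2. The replicate block, which pairs the libraries of a mouse, gave 385 and 230 and added *Col9a3* to the members that met the criteria. With the block the log2 fold change of *Nt5dc1* was -5.72, in place of -4.94. Per exon kb, the share of *Shmt2* was 19.3% and 64.7% in the resting and proliferative zone, and that of *Gm26735* 93.5% and 94.8%. Counts of called list genes with all genes of at least 1 count were 15 for cartilage matrix, 10 for hypertrophic genes, 2 for *Sox* genes, 2 for sphingolipid genes, and 15, 5 and 7 for blood, osteoblast and chondrocyte markers. Without the resting library of mouse 6 they were 15 for cartilage matrix, 2 for *Sox*, 2 for sphingolipid, 4 for osteoblast and 7 for chondrocyte genes. With the replicate block the sphingolipid list had 2, and the hypertrophic list kept a count of 6 in which *Pth1r* and *Ibsp* took the place of *Ptch1* and *Ank*.

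In the sex comparison the main fit called 2 genes higher in females and 0 in males. All genes of at least 1 count gave 14 and 28, DESeq2 gave 2 and 10, and the proliferative zone alone gave 2 and 3. With each mouse left out, which leaves 1 mouse in a sex that is assumed to vary like the other sex, 4 to 31 and 16 to 55 were called. Over the alternatives on summed libraries, edgeR and DESeq2 adjusted p-values ranged from 4.88e-20 to 0.0750 for *Nt5dc1* and from 0.000118 to 0.235 for *Col10a1*. Within the resting zone *Nt5dc1* was reversed (2.96, edgeR adjusted p = 0.604). No other paired analysis was possible for sex because each mouse has 1 sex. The causes of these changes were not tested, apart from the number of genes or libraries each setting includes. Resting counts of *Shmt2*, *Ndufa4l2* and *Col10a1* were at most 11 per library, so that their resting levels rest on few counts.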
